A study of Mus musculus with 7 samples.

Results

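Nuclear hormone receptors were examined in pancreatic islets of pregnant mice that carried either both alleles or a single intact allele of the prolactin receptor gene. The set is a list of gene names chosen by receptor family, with earlier results of these data known and no threshold on a measured value. It held 43 genes: steroid, thyroid hormone, retinoid, lipid and orphan receptors. Of these, 41 were measured among the 19938 genes tested, each by 1 probe set, and the remaining 2, Nr1h2 and Nr2e3, were not analysed here. The islets came from 3 wild-type females (PrlR+/+) and 4 females heterozygous for the null allele (PrlR+/-). All 7 mice were on the C57BL/6 strain background, were mated at 12 to 16 weeks of age and were studied on day 15 of pregnancy. The labels place the wild types in the prolactin receptor null line, and litters are not given. Both genotypes were pregnant, so the comparison holds pregnancy constant and has no non-pregnant group.

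Nuclear receptors are transcription factors, most of which bind DNA through a zinc-finger domain and are switched by a small lipophilic ligand in a separate pocket. Steroid receptors bind hormone and pair with themselves. Many of the thyroid, retinoid and lipid receptors pair with a retinoid X receptor, and orphan receptors have no established physiological ligand or act as constitutive activators or repressors. In islets, estrogen, glucocorticoid, thyroid hormone, vitamin D and fatty acid receptors are known to affect insulin secretion and beta cell survival, and REV-ERB and ROR receptors belong to the circadian clock of beta cells. Circulating estrogen, progesterone and glucocorticoid are raised in pregnancy, the state in which these islets were taken.

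Values are log2 probe set values, 1 array per mouse, and differences are PrlR+/- minus PrlR+/+. The median gene lay between 7.34 and 7.37 on every array, and the islet hormone gene Ins2 between 13.23 and 13.36, near the highest value deposited, 13.97. The acinar enzyme genes Ctrb1 (13.66 to 13.79) and Cpa1 (13.62 to 13.77) were near it too, so the islet samples also held exocrine RNA. With 3 and 4 arrays, precision is limited by their number and by unequal arrays. The array weight of limma is lower for an array whose values stray further from its group. It was 0.65 for PrlR+/+ 2 and 0.77, 0.54 and 0.29 for PrlR+/- 2 to 4. For PrlR+/+ 1, PrlR+/+ 3 and PrlR+/- 1 it was 2.04, 2.74 and 2.23. The main fit counted all arrays alike, and whether the low weights come from the mice or the arrays was not tested. Array values have no read depth and no detection call was given. Therefore 15 receptors whose mean fell in the lowest 40 percent of genes are reported as values near the floor, and 26 lay above that level. Probes differ in brightness for reasons unrelated to transcript number, so a receptor is compared only with itself across mice. In islets, which hold several cell types, fewer cells of a type and less RNA per cell cannot be told apart. Of 15 acinar markers, 14 had higher and 1 lower means in PrlR+/-, with a median difference of 0.13. Of 8 beta cell markers, 3 had higher and 5 lower means, with a median of -0.03. In both lists 0 had an unadjusted limma p under 0.05. Genotypes are as labelled: the level of the prolactin receptor transcript was not analysed here.

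No nuclear receptor transcript passed the test between the genotypes. By limma with Benjamini-Hochberg adjustment over all 19938 genes, 0 of 41 receptors had an adjusted p under 0.05, where 0.00% of all genes were called, and the smallest adjusted p of a receptor was 0.99. Among the receptors, 1, Esr1, had an unadjusted limma p under 0.05. This is 2.44% of the set against 2.20% of all genes, or 1.13% counting genes lower in PrlR+/-, so the share is near the background. No receptor had groups that did not overlap, against 2.24% of all genes. The median difference of the 41 receptors was 0.02, with 28 means higher and 13 lower in PrlR+/-, against a median of 0.01 over all genes, of which 56.3% had higher means.

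For 32 of 41 the genotype difference was smaller than 0.1 in size (78.0%, against 64.9% of all genes), and for 2, Pparg and Nr1d1, it was larger than 0.2. The 95% interval of the difference lay within 1.5-fold in both directions, ±0.585 on the log2 scale, for 38 of 41 receptors. The same held for 89.9% of all genes. Both shares include dim genes with little spread: all 15 receptors near the floor were within this bound, and 23 of the 26 above it. The receptors whose interval reached further were Pparg, Nr1d1 and Nr1d2, and for these a 1.5-fold difference in 1 direction or both lay inside the interval.

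**Figure D1:**
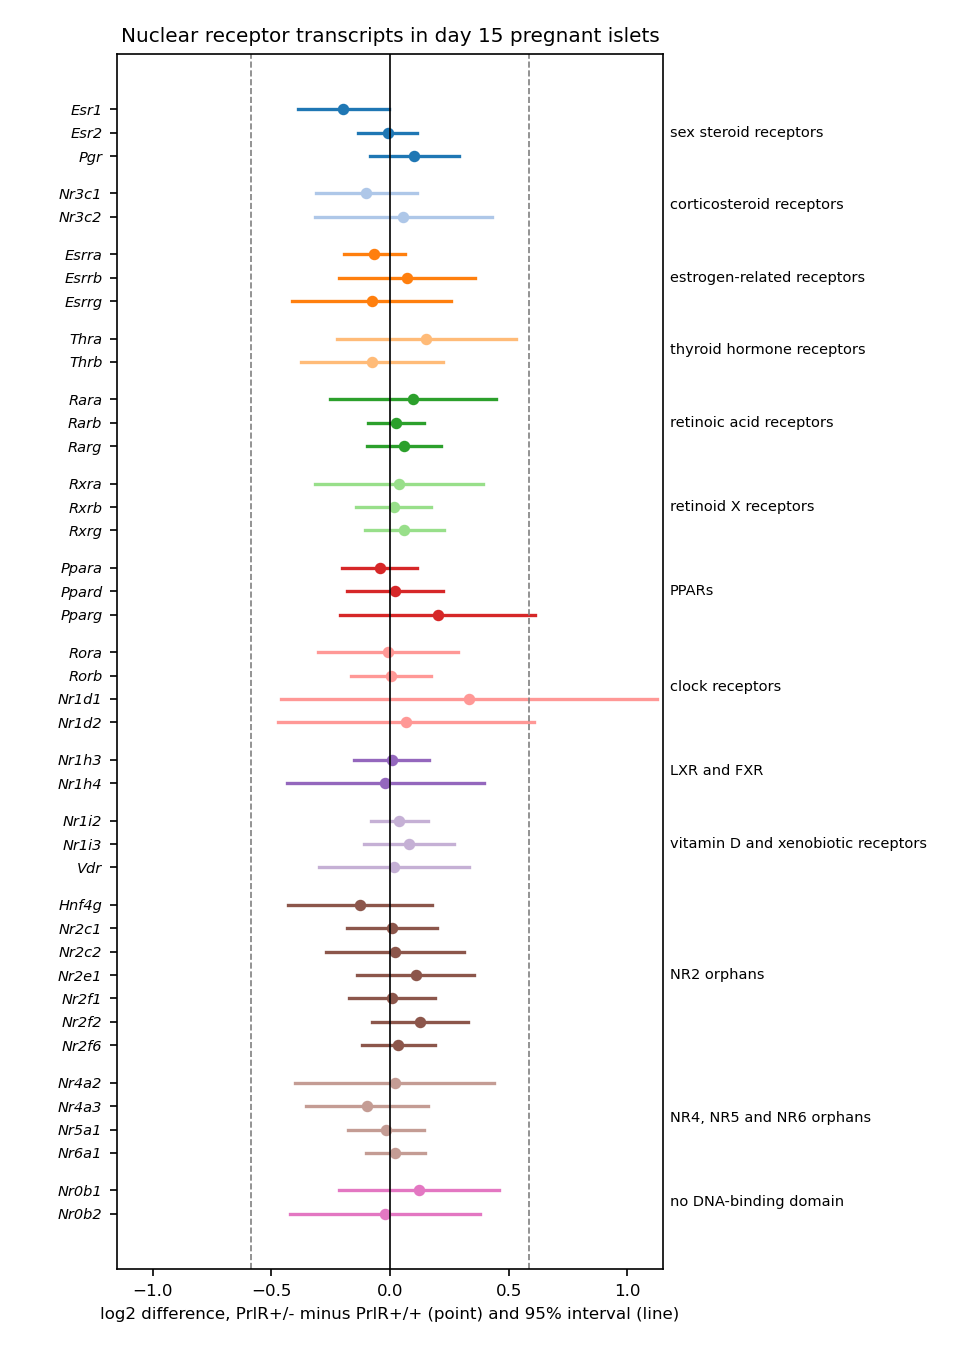
Genotype difference of the 41 receptors by class, as log2 difference PrlR+/- minus PrlR+/+ (point) with its 95% interval from limma (line); dashed lines mark 1.5-fold. Every interval but that of Esr1 spans 0, and those of Pparg, Nr1d1 and Nr1d2 cross a dashed line.

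Estrogen and progesterone receptors were examined first, as receptors of the sex steroids of pregnancy. Esr1, which encodes estrogen receptor alpha (probe set 10367600), was at 7.01, 6.86 and 7.18 in PrlR+/+ 1 to 3 and at 6.84, 6.77, 6.81 and 6.86 in PrlR+/- 1 to 4. All 4 heterozygotes lay at or below the lowest wild type, and the groups met at 6.86, the value shared by PrlR+/+ 2 and PrlR+/- 4. Groups that met at 1 value were found for 5 receptors (12.2%), and the share over all genes was not counted. In Rarb, Nr1i2, Nr2e1 and Nr6a1 the direction was opposite, with every heterozygote at or above every wild type. The means were 7.02 ± 0.16 (SD, n = 3) and 6.82 ± 0.04 (SD, n = 4), a difference of -0.20 ± 0.08 (SE), or 0.873-fold with a 95% interval from 0.764 to 0.997. The unadjusted limma p was 0.0464 and the adjusted p 0.99, so Esr1 did not pass. Its size rested on the highest wild type: without PrlR+/+ 3 the difference was -0.12, and over all 17 alternative settings it ranged from -0.28 to -0.12. The sign was negative in each of these, but most could not have turned it, because no heterozygote lay above a wild type. It could have turned with the 2 scalings or the acinar covariate. There the difference was -0.18 (quantile normalization), -0.21 (median centring) and -0.15 (acinar covariate).

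Esr2, the gene of estrogen receptor beta, was at 5.54, 5.60 and 5.57 in the wild types and at 5.57, 5.57, 5.50 and 5.60 in the heterozygotes. The difference was -0.01 ± 0.05 (SE), and the values lay near the floor in all mice. Pgr, the progesterone receptor gene and a textbook target of estrogen receptor alpha, was at 5.36, 5.62 and 5.62 in the wild types against 5.63, 5.69, 5.58 and 5.64, also near the floor. Its difference of 0.10 ± 0.08 came from the low value in PrlR+/+ 1, without which it was 0.02. The 11 measured genes of sex steroid handling and response had a median difference of 0.01, with 6 higher and 5 lower means. Of these, 1 had an unadjusted p under 0.05, Gper1, which encodes a membrane receptor that responds to estrogen. It was at 6.95 ± 0.10 (SD, n = 4) in the heterozygotes and 6.77 ± 0.07 (SD, n = 3) in the wild types. The difference was 0.18 ± 0.07 (SE, limma adjusted p = 0.99). The groups did not overlap, but only just: the highest wild type was at 6.85 and the lowest heterozygote at 6.86. Of all genes, 2.24% had groups that did not overlap and 2.20% an unadjusted limma p under 0.05.

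Corticosteroid receptors differed between the genotypes by less than their spread. Nr3c1, the glucocorticoid receptor gene, was at 9.06, 9.32 and 9.0 in PrlR+/+ and at 9.08, 8.98, 9.10 and 8.95 in PrlR+/-, a difference of -0.10 ± 0.09 (SE). PrlR+/+ 2 stood above all other mice, and without it the difference was -0.0025. Nr3c2, the mineralocorticoid receptor gene, was at 7.81, 7.85 and 7.85 in the wild types and at 7.97, 7.53, 8.27 and 7.80 in the heterozygotes. The wild types were nearly equal while PrlR+/- 2 was the lowest and PrlR+/- 3 the highest of all 7 mice, so the SD was 0.02 in PrlR+/+ and 0.31 in PrlR+/- around almost equal means (difference 0.06 ± 0.16, SE). Of 15 genes of the glucocorticoid response, 6 had higher and 9 lower means, with a median of -0.02 and 0 with an unadjusted p under 0.05. The smallest p values were those of Dusp1, a phosphatase that restrains MAP kinases (-0.56 ± 0.33, SE), and of the kinase gene Sgk1 (-0.20 ± 0.12). Dusp1, which is also an immediate early gene, was at 11.85 in PrlR+/+ 3 and at 10.62 and 10.63 in the other wild types, and without that mouse its difference was -0.16. That of Sgk1 was -0.12 without PrlR+/+ 2 or without PrlR+/- 1, and -0.31 without PrlR+/+ 1.

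**Figure D2:**
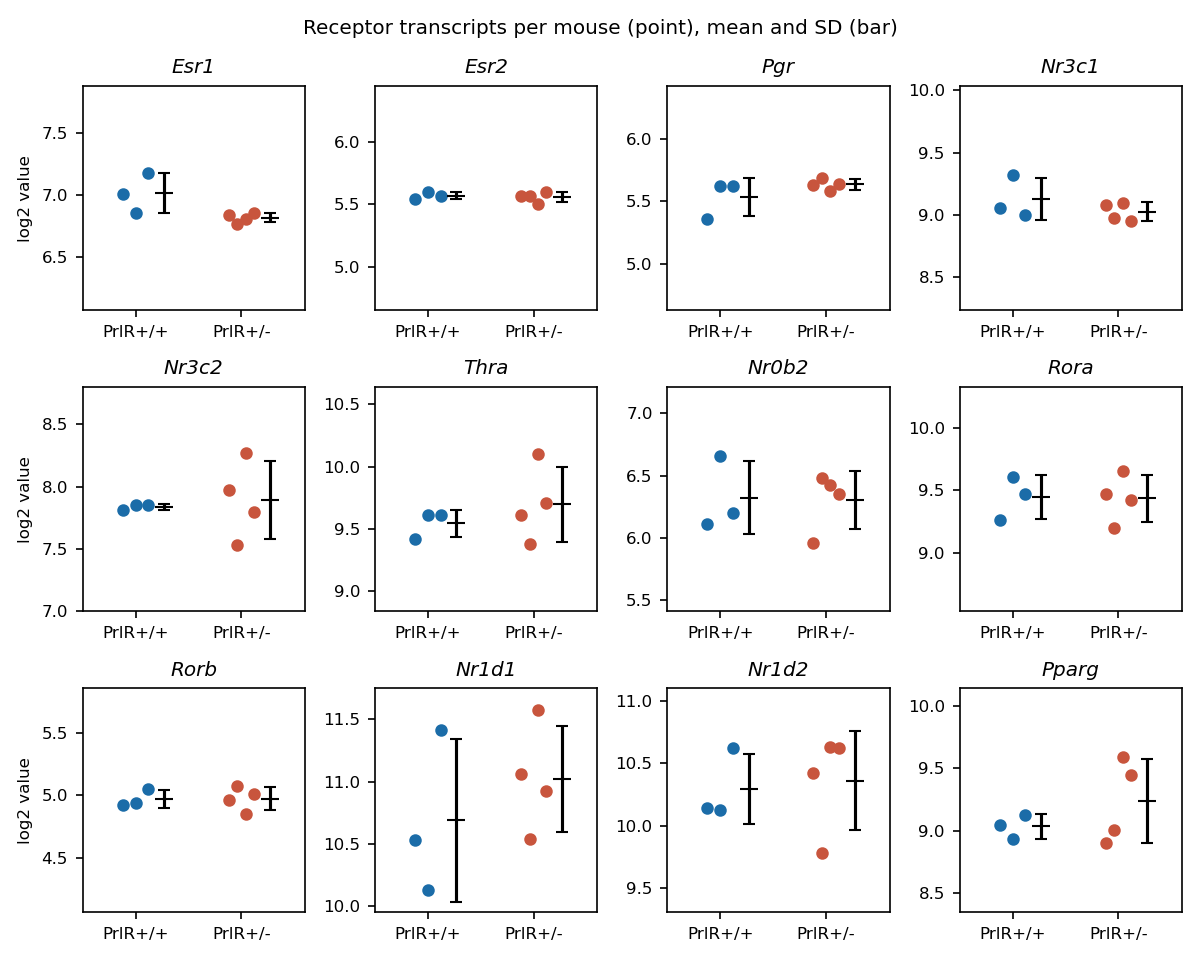
Log2 values of 12 receptors in each mouse (points) with mean and SD (bar) for PrlR+/+ and PrlR+/-; every panel spans the same log2 range of 1.8. Esr1 is the receptor whose heterozygotes all lie at or below the wild types, while Nr3c2 and Thra spread more widely among the heterozygotes.

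Thyroid hormone receptors gave no difference beyond the spread between mice. Thra, the gene of thyroid hormone receptor alpha, was at 9.42, 9.61 and 9.61 in the wild types and at 9.61, 9.38, 10.10 and 9.71 in the heterozygotes. PrlR+/- 3 was the highest and PrlR+/- 2 the lowest of all mice, and the difference of 0.15 ± 0.16 (SE) was 0.02 without PrlR+/- 3. Thrb, which encodes the beta receptor, had a mean of 7.95 ± 0.07 (SD, n = 3) in the wild types and 7.87 ± 0.24 (SD, n = 4) in the heterozygotes. Among 10 genes of thyroid hormone handling and response the median was 0.06, with 6 higher and 4 lower means and 0 with an unadjusted p under 0.05. The nearest were Slc16a10, a transporter of aromatic amino acids and thyroid hormone (-0.21 ± 0.09, SE), and the corepressor gene Hr, near the floor (0.10 ± 0.07).

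Retinoid receptors had slightly higher means in PrlR+/- throughout, each difference smaller than its SE. The retinoic acid receptor genes Rara, Rarb and Rarg differed by 0.10 ± 0.15, 0.03 ± 0.05 and 0.06 ± 0.07 (SE). The retinoid X receptor genes Rxra, Rxrb and Rxrg, whose products pair with many other receptors, differed by 0.04 ± 0.15, 0.02 ± 0.07 and 0.06 ± 0.07. The direction was not stable for Rara, Rxra and Rxrb, which turned negative in 1, 4 and 4 of 17 settings. The 4 for Rxrb and Rxra included the fit without PrlR+/+ 1. Rarb and Rxrg lay near the floor, and Rxrg was at 5.80 in PrlR+/- 4 against 5.56 to 5.60 in all other mice. Of 18 genes of retinoid metabolism and response, 11 had higher and 7 lower means, with a median of 0.06 and 0 with an unadjusted p under 0.05. The smallest p values were those of Aldh1a2, a retinoic acid-forming enzyme near the floor (0.17 ± 0.09, SE), and Dgat1, which esterifies acylglycerol and retinol (-0.24 ± 0.14).

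Of the receptors for fatty acids, Pparg showed the largest mean difference outside the clock receptors. This receptor, best known for driving fat cell differentiation, was at 9.05, 8.93 and 9.13 in PrlR+/+ and at 8.90, 9.01, 9.59 and 9.45 in PrlR+/-; it was singled out after its values were seen. PrlR+/- 3 and PrlR+/- 4 lay above all wild types and the other heterozygotes among or below them. The difference was 0.20 ± 0.17 (SE), with a 95% interval from 0.865-fold to 1.53-fold, and it was -0.01 with array weights, 0.08 without PrlR+/- 3, 0.13 without PrlR+/- 4 and 0.31 without PrlR+/- 1. The fat cell marker genes, 6 measured, averaged 6.06 to 6.38 across the wild types and 6.06 to 6.52 across the heterozygotes, with 6.52 in PrlR+/- 4, 6.38 in PrlR+/+ 2, which had the lowest Pparg of the wild types, and 6.29 in PrlR+/- 3. Of these markers, Fabp4 varied most, from 7.61 to 9.33, and Cidec lay between 6.53 and 6.94. Adipoq, Plin1, Lep and Retn lay near the floor, and 45.6% of all genes near the floor were highest in PrlR+/- 4 alone. The part of fat cells in the Pparg values was not tested. Ppara, a receptor that induces fatty acid oxidation, was near the floor (-0.04 ± 0.07, SE), and Ppard, with a similar role in many tissues, differed by 0.02 ± 0.09.

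The estrogen-related receptors, orphans that drive mitochondrial genes, differed by -0.07 ± 0.05 (Esrra), 0.07 ± 0.12 (Esrrb) and -0.08 ± 0.14 (Esrrg; all SE). Esrrg, which is known to promote oxidative metabolism in maturing beta cells, ranged from 8.18 to 8.51 in the wild types and from 8.08 to 8.6 in the heterozygotes. Esrrb lay near the floor, with 6.01 in PrlR+/- 4 and 5.50 to 5.77 in all other mice. Among 18 genes of fat oxidation that PPAR and ERR receptors are known to induce, 9 had higher and 9 lower means, with a median of -0.01. Of these, 0 had an unadjusted p under 0.05, and the nearest were Vnn1, a pantetheinase gene near the floor (0.16 ± 0.07, SE), and Acadm of medium-chain fatty acid oxidation (-0.18 ± 0.09).

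Sterol, bile acid, vitamin D and xenobiotic receptors were close to equal in both genotypes. Nr1h3, the gene of the oxysterol receptor LXR alpha, had a mean of 8.34 ± 0.08 (SD, n = 4) in the heterozygotes and 8.33 ± 0.06 (SD, n = 3) in the wild types. Nr1h4, which encodes the bile acid receptor FXR, ranged from 7.09 to 7.72 in the heterozygotes and from 7.08 to 7.54 in the wild types. Vdr, the vitamin D receptor gene, averaged 12.05 ± 0.23 and 12.04 ± 0.15, a difference of 0.02 ± 0.13 (SE) with a 95% interval from 0.812-fold to 1.26-fold. The genes of the xenobiotic sensors PXR (Nr1i2) and CAR (Nr1i3) lay near the floor and differed by 0.04 ± 0.05 and 0.08 ± 0.08. The 13 genes of LXR and sterol sensing had a median of -0.01 (Lpcat3, a phospholipid-remodelling enzyme, -0.12 ± 0.07; Mylip, which degrades the LDL receptor, 0.11 ± 0.11). The 14 genes responsive to vitamin D, bile acids or xenobiotics had a median of 0.06, but only 1 of them did not lie near the floor. It was Calb1, which encodes a calcium-binding protein (0.19 ± 0.13). The calcium channel gene Trpv6, near the floor, differed by 0.18 ± 0.15. In both lists 0 genes had an unadjusted p under 0.05.

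Orphan receptors of the NR2 family included Nr2f2, the gene of COUP-TFII, a regulator of veins and mesenchyme. Nr2f2 had a mean of 6.94 ± 0.05 (SD, n = 4) in the heterozygotes and 6.81 ± 0.17 (SD, n = 3) in the wild types, a difference of 0.13 ± 0.09 (SE) with overlap at PrlR+/+ 2, which held 7.0. Without that mouse the difference was 0.22. The endothelial and stellate marker means lay between 9.38 and 9.48 and between 7.29 and 7.51 in the wild types, and between 9.37 and 9.72 and between 7.34 and 7.79 in the heterozygotes. Their part in the Nr2f2 values was not tested. Hnf4g, a relative of the diabetes gene product HNF4 alpha, was at -0.13 ± 0.13 with its lowest value, 7.07, in PrlR+/- 4. Its difference was -0.03 without that mouse and -0.05 without PrlR+/+ 3. The other NR2 genes, Nr2c1, Nr2c2, Nr2e1, Nr2f1 and Nr2f6, differed by 0.01 to 0.11, and of these Nr2e1 and Nr2f1 lay near the floor.

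Nr4a2 and Nr4a3 encode NR4A receptors, which act without a known ligand and are induced rapidly by stimulation. Nr4a2 had a mean of 9.27 ± 0.19 (SD, n = 4) in the heterozygotes and 9.25 ± 0.37 (SD, n = 3) in the wild types, and its lowest value, 8.83, was that of PrlR+/+ 2. Nr4a3 differed by -0.10 ± 0.11 (SE) and lay near the floor. The third family member, Nr4a1, was not in the set and was at -0.54 ± 0.25. The 9 immediate early genes examined with them all had lower means in PrlR+/-, with a median of -0.54 and 0 with an unadjusted p under 0.05. Their list mean was 9.73 in PrlR+/+ 3 and 8.01 to 8.39 in the other 6 mice, so PrlR+/+ 3 stood apart. Without that mouse, an alternative chosen after seeing the data, 4 of the 9 means were lower and 5 higher, with a median of 0.02. Nr4a2 did not share this: it was at 9.41 in PrlR+/+ 3, between the values of its group. Across the 7 mice, Pearson's r of Nr4a2 with 10 such genes, Nr4a3 included, lay between -0.41 and 0.37, and 0 of 10 pairs had an unadjusted or adjusted p under 0.05 by the 2-sided exact permutation test. These values depended on PrlR+/+ 3: without it 9 of 10 were negative and r lay between -0.89 and 0.31, with -0.89 for Fos and -0.84 for Junb, though 0 of 10 passed (smallest exact permutation adjusted p = 0.215). For Nr4a3, r was -0.95 without PrlR+/- 3 (exact permutation adjusted p = 0.194).

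The remaining orphan receptors did not pass the test either. Nr5a1, the gene of steroidogenic factor SF-1, and Nr6a1, the germ cell nuclear factor gene, differed by -0.02 ± 0.07 and 0.02 ± 0.05 (SE). Nr5a1 lay near the floor. Nr6a1 had the value 8.28 on 6 of 7 arrays and 8.37 in PrlR+/- 2. Equal values on 3 or more arrays were found for 9 of 41 receptors (22.0%) and for 34.5% of all genes. Nr0b1, which encodes DAX1, a receptor without a DNA-binding domain, was near the floor at 4.34 to 4.47 in 6 mice and at 4.96 in PrlR+/- 4, a difference of 0.12 ± 0.14. Nr0b2 encodes SHP, the inhibitory partner of many receptors. It was at 6.11, 6.66 and 6.20 in PrlR+/+ and at 5.96, 6.48, 6.42 and 6.35 in PrlR+/-, also near the floor. This was a wide scatter with fully mixed groups and a difference of -0.02 ± 0.17.

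Of the 41 receptors, the clock receptors Nr1d1 and Nr1d2 had the widest ranges between individual mice. Nr1d1 and Nr1d2 encode REV-ERB alpha and beta, repressors that bind an extended AGGTCA half-site and hold down Arntl (BMAL1) and other clock genes, while Rora and Rorb encode ROR receptors, activators at the same sites. Arntl and Clock proteins in turn activate Nr1d1 and the PER and PAR bZIP genes (Dbp, Tef, Hlf) through E-boxes, and the PAR bZIP proteins bind D-boxes. The 250 bases before the annotated start sites of both REV-ERB genes and of Per3, the clock gene that followed Nr1d1 most closely, are shown from RefSeq (GRCm38.p6), 5′ to 3′ on the gene's strand, with motif matches in capitals. Searched on both strands were the E-box CACGTG, its variant CACGTT, the receptor half-site AGGTCA and the D-box TTATGTAA. Nr1d1 (chr11:98775378-98775627, minus strand) held the variant as AACGTG, 28 bases before the start. Nr1d2 (chr14:18239107-18239356, minus strand) held the half-site 77 bases before it. Per3 (chr4:151044666-151044915, minus strand) held the D-box 205 and 158 bases before it.
Nr1d1: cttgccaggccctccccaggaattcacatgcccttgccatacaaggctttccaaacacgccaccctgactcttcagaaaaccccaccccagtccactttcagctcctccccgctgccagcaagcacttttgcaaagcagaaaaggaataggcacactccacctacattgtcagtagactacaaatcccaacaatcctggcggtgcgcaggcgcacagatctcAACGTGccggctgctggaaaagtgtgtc
Nr1d2: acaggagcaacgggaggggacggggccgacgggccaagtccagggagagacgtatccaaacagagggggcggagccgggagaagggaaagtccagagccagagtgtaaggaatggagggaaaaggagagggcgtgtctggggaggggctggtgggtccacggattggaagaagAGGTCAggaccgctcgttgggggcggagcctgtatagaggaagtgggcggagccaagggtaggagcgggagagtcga
Per3: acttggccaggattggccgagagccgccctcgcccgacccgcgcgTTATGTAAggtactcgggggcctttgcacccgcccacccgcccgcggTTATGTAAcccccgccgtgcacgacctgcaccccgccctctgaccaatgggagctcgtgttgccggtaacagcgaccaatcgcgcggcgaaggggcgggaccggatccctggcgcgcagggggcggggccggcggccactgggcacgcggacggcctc

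Of 32851 RefSeq promoters of the same length, 6.02% held the E-box, 3.85% the variant, 14% the half-site and 0.819% the D-box. Promoters were given for 37 of the 41 receptors, 56 in all, of which 5 held the E-box, 3 the variant, 10 the half-site (17.9%) and 0 the D-box. These matches describe letters in a short window and are not measured binding sites.

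Nr1d1 was at 10.53, 10.13 and 11.41 in PrlR+/+ 1 to 3 and at 11.06, 10.54, 11.57 and 10.92 in PrlR+/- 1 to 4. Both genotypes held a high mouse, PrlR+/+ 3 and PrlR+/- 3, and its range of 1.44 was the widest of the 41 receptors. The means were 10.69 ± 0.65 (SD, n = 3) and 11.02 ± 0.43 (SD, n = 4), a difference of 0.33 ± 0.34 (SE) with a 95% interval from 0.728-fold to 2.18-fold. This difference depended on single mice: it was 0.69 without PrlR+/+ 3, 0.05 without PrlR+/+ 2 and 0.15 without PrlR+/- 3. Without PrlR+/+ 3, its highest wild type, the groups no longer overlapped, as was so for 5.75% of all genes in that setting. It was 0.09 with array weights and 0.53 when the mean of the acinar markers entered the fit. The limma adjusted p was 0.99 with all mice and 1 without PrlR+/+ 3.

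Nr1d2 was at 10.14, 10.13 and 10.62 in the wild types and at 10.42, 9.78, 10.63 and 10.62 in the heterozygotes, a difference of 0.07 ± 0.23 (SE). Its high mice were again PrlR+/+ 3 and PrlR+/- 3, joined by PrlR+/- 4, and its low mouse was PrlR+/- 2. Rora was at 9.26, 9.61 and 9.47 against 9.47, 9.20, 9.66 and 9.42, with no separation (-0.01 ± 0.13). Rorb lay near the floor, at 4.92, 4.94 and 5.05 against 4.96, 5.07, 4.85 and 5.01 (0.00 ± 0.07).

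Across mice, 1 clock gene, Per3, correlated with Nr1d1 after adjustment, a call that most alternatives did not keep. Of 13 clock genes set against Nr1d1 over the 7 mice, 9 had a positive and 4 a negative Pearson's r, and 4 had a p under 0.05 by the 2-sided exact permutation test before adjustment. After Benjamini-Hochberg adjustment over the 13 pairs, 1 passed. It was Per3, a period gene, with r = 0.95 (exact permutation p = 0.00238, adjusted p = 0.031) and Spearman's rho = 0.919 (exact permutation p = 0.00635, adjusted p = 0.0825). Per3 was at 7.62, 7.28 and 8.16 in the wild types and at 7.72, 7.42, 8.03 and 7.72 in the heterozygotes, so its high and low mice were those of Nr1d1. With the 2 mice farthest from the median of Nr1d1 left out (PrlR+/+ 2 and PrlR+/- 3), r was 0.919 over 5 mice (exact permutation p = 0.0333, adjusted p = 0.217). Leaving out any 1 mouse gave r from 0.919 to 0.964, but the exact permutation call was lost for 6 of the 7 mice, with adjusted p from 0.0542 to 0.108, and kept without PrlR+/- 1 (adjusted p = 0.0361). It was also lost with quantile normalization (r = 0.946, exact permutation adjusted p = 0.0542). Fewer mice raise the smallest p that the test can give. With 5 mice that p is too large for 1 pair alone to pass over the 13 pairs. With each value taken as a deviation from its genotype mean, r was 0.991. Deviations within a genotype depend on each other, so pairings across all mice give no exact p for them, and none is given.

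The other 12 pairs did not pass after adjustment with all mice. With 1 mouse left out, Hlf passed without PrlR+/+ 2 (r = 0.949, exact permutation adjusted p = 0.0361), where Per3 did not. Ciart, a clock repressor, passed beside Per3 without PrlR+/- 1 (r = 0.947, exact permutation adjusted p = 0.0361). For Nr1d2, r with Nr1d1 was 0.782 and rho 0.829 (exact permutation p = 0.0432 and 0.0302, adjusted p = 0.137 and 0.148), and r was 0.818 without the farthest 2 mice. For Dbp, a PAR bZIP activator, r was 0.79 and rho 0.821 (exact permutation p = 0.0369 and 0.0341, adjusted p = 0.137 and 0.148), and r was 0.641 without those mice. For its relative Hlf, r was 0.765 and rho 0.631 (exact permutation p = 0.0389 and 0.141, adjusted p = 0.137 and 0.332), and r was 0.978 without them. The negative values were those of Arntl (r = -0.49), the cryptochrome gene Cry1 (r = -0.654) and the repressor gene Nfil3 (r = -0.634), with that of Clock at -0.04. None of these passed the exact permutation test, with adjusted p between 0.191 and 0.948. Within a genotype 3 or 4 mice are too few for a correlation. The labels do not give the time of day of the harvest.

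**Figure D3:**
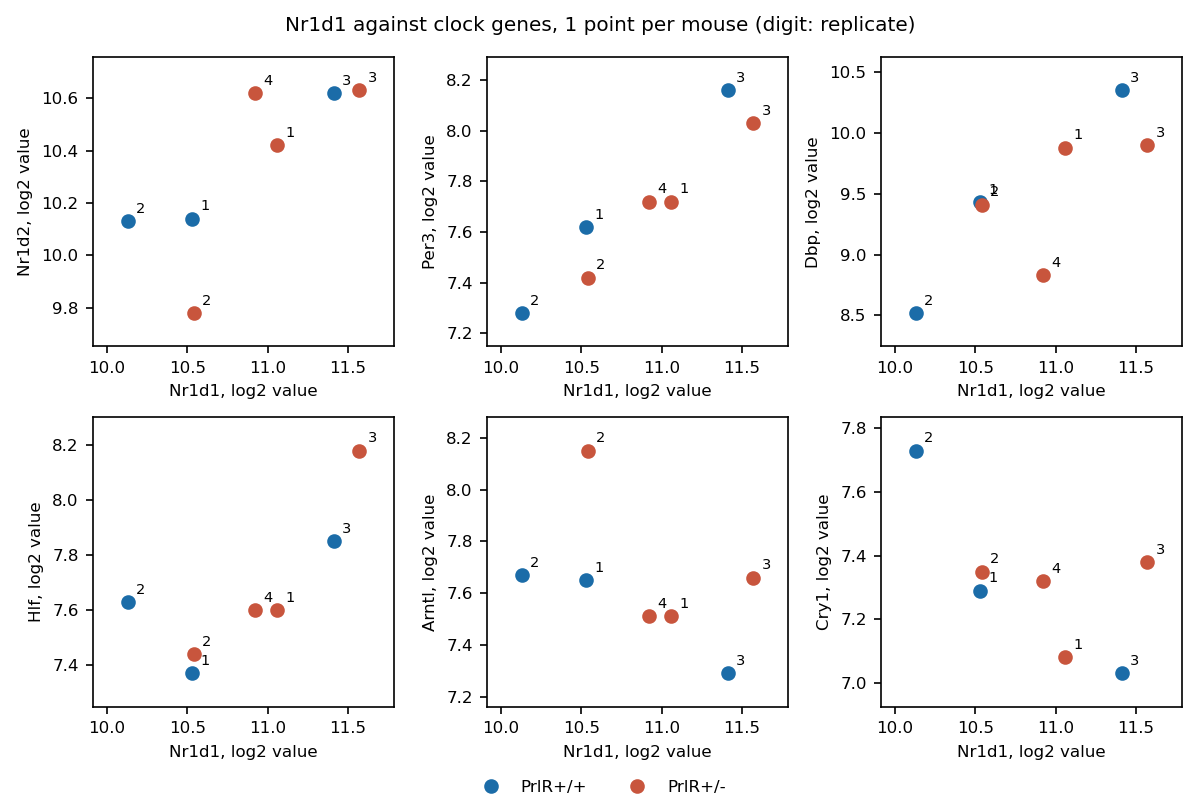
Log2 values of Nr1d2, Per3, Dbp, Hlf, Arntl and Cry1 (vertical axes) against Nr1d1 (horizontal axis), 1 point per mouse, coloured by genotype and marked with the replicate number. The points of Per3 lie close to a rising line (r = 0.95), and mice of both genotypes lie at both of its ends.

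As a list, the 14 measured clock genes had 7 higher and 7 lower means in PrlR+/-, with a median difference of 0.01. The 1 gene with an unadjusted p under 0.05 was Bhlhe40, a repressor of clock-driven transcription that is also induced by many stimuli. It was at 8.24, 8.67 and 8.63 in PrlR+/+ and at 8.22, 7.78, 8.24 and 7.88 in PrlR+/-, a difference of -0.48 ± 0.16 (SE; limma adjusted p = 0.99). The groups met at 8.24, shared by PrlR+/+ 1 and PrlR+/- 3. Receptor coregulators, the proteins through which nuclear receptors activate or repress, had a median difference of 0.01 over 22 genes, with 14 higher and 8 lower means and 0 with an unadjusted p under 0.05. The smallest p values were those of Ncoa4, also the cargo receptor for ferritin (-0.09 ± 0.07), and Ncoa6 (0.15 ± 0.12). Over the 10 related lists, with the receptors themselves left out, 2 of 141 genes had an unadjusted p under 0.05, or 1.42% against the 2.20% of all genes.

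Several receptors shared their highest and lowest mouse. Nr3c2, Thra, Rara, Rora, Nr1d2, Nr1h3 and Nr2c2 were each highest in PrlR+/- 3 and lowest in PrlR+/- 2, which is 17.1% of the receptors and 5.07% of all genes. These 7 all lay above the floor, while the share of all genes also counts dim genes. Of the genes near the floor, 7.55% were highest in PrlR+/- 3 alone, so the 2 shares are not on equal terms. PrlR+/- 3 and PrlR+/- 2 were also picked after the receptor values were seen. This favours the receptors over all genes, here and in the shares that follow, and receptors that vary together are not separate cases. The array weights of these mice were low, 0.54 for PrlR+/- 3 and 0.77 for PrlR+/- 2. Of the 26 receptors above the floor, 13 were highest in PrlR+/- 3 alone (50%, against 21.3% of all genes above it) and 9 lowest in PrlR+/- 2 alone (34.6% against 20.9%). Rara, for example, was at 8.16 in PrlR+/- 2, 8.83 in PrlR+/- 3 and 8.41 to 8.66 in the other mice, and Nr2c2, which encodes TR4, at 9.32, 9.87 and 9.60 to 9.72. PrlR+/- 2 also had the highest mean of 15 acinar markers, 12.30 against 11.53 to 12.10 in the other mice, and the highest endothelial mean, 9.72. PrlR+/- 3 had an acinar mean of 11.97. The part of these cells in the receptor values was not tested. With the acinar mean as a covariate, the Esrrg difference was 0.02 in place of -0.08 and that of Nr0b2, near the floor, -0.14 in place of -0.02.

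Receptors near the floor had another order. Of the 15, 6 were highest in PrlR+/- 4 alone (40%), as were 45.6% of all genes below that level, and the lower quartile of all genes was 5.82 on that array against 5.62 to 5.73 on the others. Nr0b1, Nr2e1 and Esrrb were among these: without PrlR+/- 4 their differences were -0.01, 0.01 and -0.03 in place of 0.12, 0.11 and 0.07. The SD was larger in PrlR+/- than in PrlR+/+ for 26 of 41 receptors (63.4%) and for 69.3% of all genes.

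**Figure D4:**
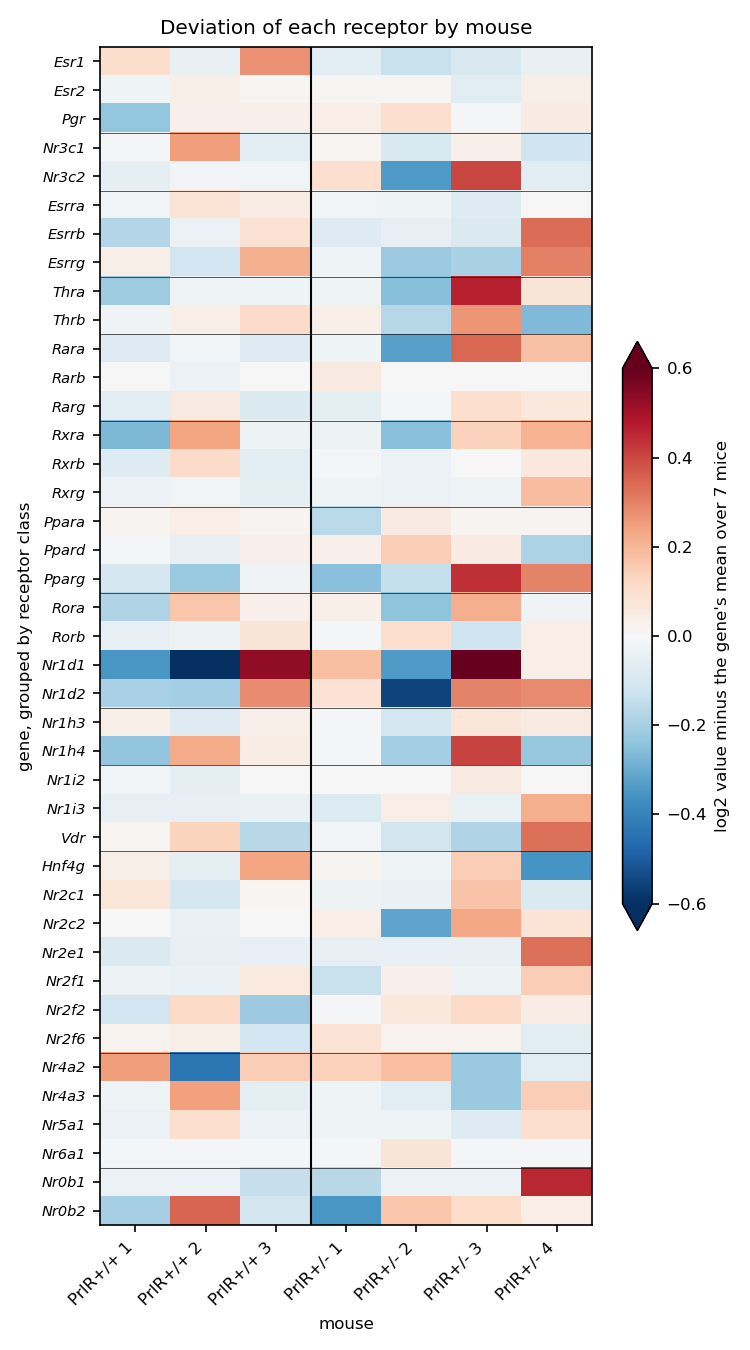
Log2 value of each receptor minus its mean over the 7 mice, by mouse (columns, PrlR+/+ left and PrlR+/- right of the line) and receptor class (rows); colours are capped at ±0.6. PrlR+/- 2 and PrlR+/- 3 take opposite colours for Nr3c2, Thra, Rara, Nr1d2 and Nr2c2, and PrlR+/- 4 is high for dim receptors such as Nr0b1 and Nr2e1.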

How the data were processed

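Islet RNA of 7 mice was measured on Affymetrix arrays. The deposited table holds log2 values with 2 decimals, from 1.73 to 13.97, and their range is what shows the log2 scale. The authors used Affymetrix Expression Console 1.2.0.20, per the submitters' processing notes. Which algorithm it ran for background, scaling and summary is not given in the sources here. Per the labels' protocols, 250 ng of total RNA with an RIN above 8.5 was labelled per mouse.

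Platform annotation named 21789 of 35556 probe sets with 1 symbol. 1621 with several symbols and 12146 unnamed here were left out. The highest-mean probe set stood for a gene, which gave 19938 genes without a filter. All 41 receptors matched the RefSeq gene table by Entrez identifier and symbol.

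Differences came from limma 3.58.1 (lmFit, eBayes; R 4.3.3), 2-sided, with Benjamini-Hochberg adjustment over all genes. SE and 95% intervals are limma's. Exact permutation tests used all 5040 pairings of 7 mice, by absolute size of r (smallest p possible 0.000198; scipy 1.17.1, pandas 2.3.3). Data were simulated for 19938 genes, 200 of them changed by 1.5-fold, 2-fold or 4-fold. The fit recovered 68.2% of the 1.5-fold and 94.5% of the 2-fold changes. The simulated noise was independent between genes and alike on all arrays, and many changed genes ease the adjustment. These shares are therefore not the power for 1 changed receptor in the real arrays, where 0 genes were called. Members and lists were chosen with earlier results of these data known. Values in every mouse are given for receptors with an unadjusted p under 0.05, sex steroid, corticosteroid and clock receptors, and the 5 of widest range; of each list, members with such a p, or else the 2 of smallest p. Pparg and further members were added with their values known. The 17 alternative settings comprised 3 choices of variance model or array weight, 2 scalings, 2 filters on dim genes, the mean of probe sets, the replicate number as a block, an acinar covariate and leaving out each mouse. The marker lists not named with a value lay as follows, as list means from the lowest to the highest mouse of PrlR+/+ and then of PrlR+/-: alpha 11.05 to 11.09 and 10.94 to 11.16, delta 9.88 to 10.30 and 9.94 to 10.38, PP 8.47 to 8.56 and 8.56 to 8.66, beta 11.91 to 12.09 and 11.77 to 12.04, duct 8.12 to 8.23 and 8.10 to 8.40, myeloid 7.15 to 7.45 and 7.40 to 7.52, lymphocyte 5.53 to 5.64 and 5.62 to 5.84, Schwann 7.02 to 7.13 and 7.15 to 7.39, red blood (1 gene) 6.35 to 6.46 and 6.33 to 6.64.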

Additional observations from a re-analysis of the deposited data

Results flagged for a closer look

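Among the 4 PrlR+/- mice, 1 mouse stood far from the 3 others, by Dixon's ratio above 0.829, for 14 of 77 genes looked at. Chance gives about 1 in 20 for values without ties, but 15.2% of all genes with any spread in this group were of this kind. Of the 41 receptors, 7 were (17.1%), a share near that of all genes: Esrrb (6.01 in PrlR+/- 4, 5.59 to 5.63 in the others), Rarb (6.10 in PrlR+/- 1, 6.04 in each of the others), Rxrg (5.80 in PrlR+/- 4, 5.58 to 5.59 in the others), Ppara (6.06 in PrlR+/- 1, 6.24 to 6.27 in the others), Nr1i2 (5.90 in PrlR+/- 3, 5.85 in each of the others), Nr2e1 (5.99 in PrlR+/- 4, 5.61 in each of the others) and Nr6a1 (8.37 in PrlR+/- 2, 8.28 in each of the others). Among the other genes they were Ncoa4 (10.22 in PrlR+/- 2, 10.36 in each of the others), Sgk1 (7.30 in PrlR+/- 1, 7.61 to 7.66 in the others), Dgat1 (8.03 in PrlR+/- 4, 8.53 to 8.6 in the others), Clock (10.17 in PrlR+/- 4, 10.77 to 10.85 in the others), Nfil3 (8.24 in PrlR+/- 2, 8.13 in each of the others), Ier2 (6.04 in PrlR+/- 2, 6.08 in each of the others) and Atf3 (6.98 in PrlR+/- 2, 6.74 to 6.76 in the others). The 3 wild types were too few for this ratio. Where the others share a value to 2 decimals, as for Rarb, Nr1i2, Nr2e1 and Nr6a1, the ratio is at its largest whatever the size of the gap, which was between 0.05 and 0.38.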

How the results depend on the processing

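With all 17 alternatives, 0 genes were called (limma, adjusted p under 0.05), and the smallest adjusted p of a receptor was 0.818, for Esr1 with array weights. The median receptor difference of 0.02 lay between -0.0033 and 0.0433. Of 41 receptors, 15 kept their sign in every setting they entered and 26 did not. No value moved by as much as the pooled SD between mice (667 values), but most settings could not have moved one so far. Leaving out 1 mouse of 3 or 4 cannot shift a difference by that much. A change of variance model alone, the filters and the mean of probe sets leave the difference of a receptor as it was. The number of receptors whose groups did not overlap, 0, was 1 with quantile normalization (Esr1; 3.57% of all genes) and 0 to 4 with 1 mouse left out. The 4, without PrlR+/+ 2, were Esr1, Rarg, Rxrb and Nr2f2, where 10.3% of all genes were separate. The number with an unadjusted p under 0.05, 1, was 0 with quantile normalization, with either filter on dim genes and with the acinar covariate, and 0 to 2 with 1 mouse left out. Of related-list genes, 2 had such a p, against 5 with array weights, 1 with either filter, 4 with the replicate block and 1 to 6 with 1 mouse left out; these settings were chosen for the lists after seeing the data. Of all genes, 2.20% had such a p, 5.68% with array weights and 1.24% to 3.98% with 1 mouse left out. Their split was 213 higher and 225 lower, 284 and 182 with quantile normalization, and 133 and 308 with median centring. The replicate numbers did not pair the mice (correlation of deviations 0.0896, -0.386 and -0.0287); with them as a block, Esr1 was at -0.21 and Nr1d1 at 0.37 (limma adjusted p = 1), and Nr1d1 in place of Esr1 had the 1 unadjusted p under 0.05. Of the clock pairs, 1 passed, against 0 with quantile normalization and 0 to 2 with 1 mouse left out, where fewer mice raise the smallest p possible. Without the 2 farthest mice 0 passed, but there 1 pair alone could not have passed. The cause of the other changes was not tested. Dim receptors and the absence of detection calls limit what a small difference can show.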

Other observations

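Several receptor genes are neighbours in the annotated genome (GRCm38.p6). On chromosome 11 the annotated spans of Thra and Nr1d1 overlap, and Rara lies 5 protein-coding genes away. On chromosome 14 Rarb, Thrb and Nr1d2 follow each other with 0 protein-coding genes between, as Nr5a1 and Nr6a1 do on chromosome 2. In the chromosome 11 group, Thra, Rara and Nr1d1 were all highest in PrlR+/- 3, at 10.10, 8.83 and 11.57. Their lowest mice were PrlR+/- 2 for Thra and Rara, at 9.38 and 8.16, and PrlR+/+ 2 for Nr1d1, at 10.13. In the chromosome 14 group, Thrb and Nr1d2 were highest in PrlR+/- 3 as well, at 8.17 and 10.63, while Rarb lay between 6.01 and 6.10 in all mice. A highest value in PrlR+/- 3 was not particular to neighbours. It was found for 13 of the 26 receptors above the floor (50%), against 21.3% of all genes above it. The probe positions were not used here, so whether a probe set of Thra or Nr1d1 lies in the shared stretch was not tested.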
